A study of Gallus gallus with 16 samples.

Results

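The HOX cluster genes, the homeobox transcription factor genes named HOXA, HOXB, HOXC or HOXD with a number, were looked up by symbol in a table of chromatin peaks from chick lens fiber cells. RefSeq names 35 protein-coding genes of this form in the chicken: 11 in HOXA, 9 in HOXB, 6 in HOXC and 9 in HOXD. Of these, 1 had a line in the peak table: HOXD4 (gene ENSGALG00000023419), with 1 of the 108520 distinct peaks and 1 of the 14100 gene identifiers. The other 34 HOX genes had no line in any of the 4 lists, so most of the description below concerns the 4 genomic stretches between the peaks of the clusters' neighbours. All counts are of lines in the table as analysed here, which may not hold every peak that was called, so a count of 0 means that no line was found and not that the mark was absent.

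The lenses came from White Leghorn chick embryos at embryonic day 13. Whole lenses were kept in organ culture for 2 h at 21% oxygen (normoxia) or at 1% oxygen (hypoxia), and the fiber cells, which form the bulk of the lens, were then cut out by microdissection. Each replicate pooled 10 to 15 lenses. CUT&RUN, which frees antibody-bound chromatin fragments with a tethered nuclease, was run for H3K4me3 with 3 libraries per condition, for H3K27ac with 2 per condition and for an IgG control with 3 per condition. All embryos were of the same strain, and the labels give no genotype or drug difference between conditions. They state oxygen as the difference, but those of the extraction step speak of 0 h or 2 h of hypoxia, so how long the normoxic lenses were cultured is not certain. The table held 4 peak lists, 1 per mark and condition, with no value per library, so no comparison below carries a replicate error or a test.

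HOX genes encode transcription factors that give cells along the head-to-tail axis their regional identity, and in vertebrates they stand side by side in clusters. Genes at one end of a cluster (low numbers) act in the hindbrain and pharyngeal arches, and those at the other end (high numbers) in the posterior trunk, the limbs and the urogenital tract. H3K4me3 marks active and poised promoters and H3K27ac marks active promoters and enhancers. In cells that do not use them, HOX clusters are known to be held silent by Polycomb complexes, whose mark H3K27me3 was not measured here. The lens forms from head ectoderm in front of the territory in which HOX genes act.

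The HOXD4 peak was in the normoxia H3K4me3 list. HOXD4 patterns the posterior hindbrain and the cervical vertebrae in the mouse. The peak lay at chr7:16274684-16274938 of the galGal6 build and was 255 bp wide. It was annotated to transcript ENSGALT00000038691.4 in the class for promoters 2 to 3 kb from a transcription start site (TSS), 2705 bp downstream of the start. Neither the hypoxia H3K4me3 list nor either H3K27ac list held a peak that overlapped it. The line therefore placed a narrow H3K4me3 interval near HOXD4, in 1 condition, without H3K27ac and away from the start itself.

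The HOXD4 peak was narrow for its list. The median width of the 22288 normoxia H3K4me3 peaks was 1035 bp, and 1989 of them (8.92%) were no wider than 255 bp. Among the 742 peaks of that list in the same class the median was 622 bp, and 12.4% were no wider. Narrow peaks of this list were seldom shared: 66.5% of all its peaks overlapped a hypoxia H3K4me3 peak by at least 1 bp, against 17.6% of the 1989 peaks no wider than that of HOXD4. The 7457 peaks found in the normoxia list only had a median width of 405 bp, and 22.0% of them were no wider than 255 bp. The presence of the peak in 1 condition thus resembled that of most peaks of its width, and whether the HOXD4 interval differed between conditions was not tested, because the lists give no signal per library.

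**Figure D1:**
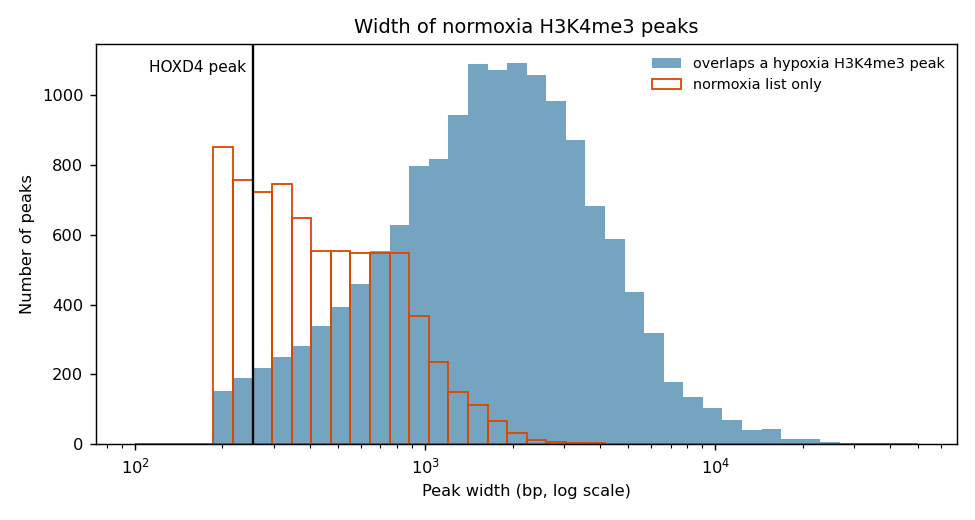
Histogram of the widths (bp, log scale) of the 22288 normoxia H3K4me3 peaks, split into those that overlap a hypoxia H3K4me3 peak (filled) and those in the normoxia list only (outlined), with the 255 bp HOXD4 peak as a vertical line. The HOXD4 peak falls among the narrow widths, where peaks of the normoxia list only are the more numerous.

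The peak also stood apart. The nearest other peak of any list was 32.9 kb away, and 281 of the 22288 peaks of its list (1.26%) were at least as far from any other peak. The median of that distance over the list was 0, since most H3K4me3 peaks overlapped a peak of another list. On the side towards MTX2, which encodes a mitochondrial outer membrane protein, the nearest peaks of the 4 lists were 32.9 kb (both H3K4me3 lists), 33.7 kb (normoxia H3K27ac) and 33.1 kb (hypoxia H3K27ac) away. On the side towards LNPK, which encodes an endoplasmic reticulum protein, they were 92.0 kb (normoxia H3K4me3), 91.8 kb (hypoxia H3K4me3), 92.3 kb (normoxia H3K27ac) and 177 kb (hypoxia H3K27ac) away.

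Among the anterior paralog groups, numbered 1 to 3, no gene had a line. They include HOXA2, HOXA3, HOXB1, HOXB2, HOXB3, HOXD1 and HOXD3, which act in the hindbrain and the pharyngeal arches. HOXA2 is known for giving the second pharyngeal arch its identity. Among the central groups, numbered 4 to 8, HOXD4 was the only 1 of 12 genes with a line. The others were HOXA4, HOXA5, HOXA6, HOXA7, HOXB4, HOXB5, HOXB6, HOXB7, HOXB8, HOXC8 and HOXD8, which act in the neck and the thorax. HOXA4 and HOXB4, the only paralogs of HOXD4 among the genes that RefSeq named, thus had no line in any of the 4 lists. Among the posterior groups, numbered 9 to 13, none of 15 genes had a line. These were HOXA9, HOXA10, HOXA11, HOXA13, HOXB13, HOXC9, HOXC10, HOXC11, HOXC12, HOXC13, HOXD9, HOXD10, HOXD11, HOXD12 and HOXD13. HOXA13 and HOXD13 pattern the digits, and HOXA11 and HOXD11 the forearm. The 5 genes of the miR-10 and miR-196 families, which lie inside HOX clusters and whose microRNAs target HOX transcripts, had no line either (MIR10A, MIR10B, MIR196A1, MIR196A2 and MIR196B). The share of all microRNA genes with a line was not computed, so this count cannot be read as particular to these genes.

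In all, 1 of 35 HOX genes (2.86%, Wilson 95% interval 0.506 to 14.5%) had a line, against 82.4% of the 14344 protein-coding genes that RefSeq names in the chicken nuclear genome. The interval treats genes as independent, which neighbours in a cluster are not: the 35 genes are 4 loci. A peak within 3000 bp of the TSS, here called a promoter peak, was listed for 1 of 35 HOX genes in the normoxia H3K4me3 list, where the share over all named genes was 63.9%. It was listed for 0 of 35 in the hypoxia H3K4me3 list (all genes 65.2%), for 0 of 35 in the normoxia H3K27ac list (29.8%) and for 0 of 35 in the hypoxia H3K27ac list (53.6%). HOXD4 was the 1 HOX gene whose H3K4me3 promoter peak was in the normoxia list only, a state found for 332 of all named genes (2.31%). The share of HOX genes in that state, 1 of 35, was near this background.

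A search by symbol can miss peaks that the annotation gave to another gene, so the clusters were also read by position. In RefSeq's gene order the HOXA genes and EVX1 lie between SKAP2 and HIBADH, the HOXB genes between CALCOCO2 and SKAP1, the HOXC genes between ATP5G2 and SMUG1, and the HOXD genes and EVX2 between MTX2 and LNPK. EVX1 and EVX2 are homeobox genes next to the posterior ends of their clusters, and neither had a line. The stretch from the last peak annotated to 1 neighbour to the first annotated to the other was then measured in galGal6. A peak annotated to either neighbour sets an edge and is never inside, so this reading could find only peaks annotated to other genes. The neighbours were the nearest named genes with a line, so the named genes between them, apart from HOXD4, had none. Few peaks inside are thus partly fixed by this definition. The numbers that a chromosome's density would give are stated below for scale and not as a contrast. At CALCOCO2 and SMUG1 the edges were distal intergenic peaks, 15245 and 12029 bp from the TSS. RefSeq's own assembly, GRCg7b, is another build and places HOXC on a chromosome of another number, so it served for gene order alone. The exact place of each HOX gene is not known from the table, nor whether a cluster reaches past an edge of its stretch. Whether gaps in the assembly lie there was not tested.

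The HOXA stretch ran over chr2:32503684-32871915, a length of 368.2 kb, and held no peak of any list. For scale only, at the mean density of that chromosome, 7.98 peaks of the 4 lists per 100 kb, this length would hold 29.4. It was the seventh longest of the 7203 stretches between neighbouring peaks on its chromosome, whose median was 6243 bp. SKAP2, a signalling adaptor, had promoter peaks in 3 of the 4 lists, and the wider of the 2 in the hypoxia H3K4me3 list was 2294 bp wide. HIBADH, an enzyme of valine breakdown, had them in all 4 lists, the widest of 2976 bp in hypoxia H3K4me3. The genes on both sides thus had marked promoters. On the HIBADH side the empty stretch ended at a hypoxia H3K4me3 peak of 173 bp that the table classes as intronic, 47283 bp from the TSS.

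The HOXB stretch ran over chr27:6133495-6392449, a length of 259.0 kb, and held no peak either. The density of that chromosome, 14.3 peaks per 100 kb, would give 37.1. It ranked sixth among 555 stretches, with a median of 2977 bp. CALCOCO2, an autophagy receptor gene, had H3K4me3 promoter peaks in both conditions, 3579 bp wide in normoxia and 1826 bp wide in hypoxia. SKAP1, an adaptor of T cells, had a single line, an intronic hypoxia H3K27ac peak of 1643 bp that lay 31389 bp from the TSS and formed the edge of the stretch.

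The HOXC stretch ran over chr33:7483083-7704884, a length of 221.8 kb, again with no peak, where the chromosome's density of 13.3 peaks per 100 kb would give 29.4. It ranked the fourth of 413 stretches, with a median of 3446 bp. ATP5G2, which encodes a subunit of the mitochondrial ATP synthase, and SMUG1, a DNA repair glycosylase, had promoter peaks in all 4 lists. Their hypoxia H3K4me3 peaks were 2209 bp wide at ATP5G2 and 1704 bp wide at SMUG1. The genes on both sides thus carried H3K4me3 and H3K27ac in both conditions.

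The HOXD stretch ran over chr7:16241816-16366707 and was the shortest, at 124.9 kb. It held the HOXD4 peak and nothing else, so 255 bp of it were covered, where the chromosome's density of 10.9 peaks per 100 kb would give 13.6 peaks. The longer of the 2 empty pieces, from HOXD4 towards LNPK, was 91.8 kb and ranked 53 of 2425 on its chromosome, with a median of 4847 bp. MTX2 had promoter peaks in all 4 lists. The widest were of 2270 and 2350 bp for H3K4me3 and of 619 and 748 bp for H3K27ac in normoxia and hypoxia. The H3K4me3 promoter peaks of LNPK were 1487 bp wide (normoxia) and 2630 bp wide (hypoxia). Its H3K27ac promoter peak of 609 bp was in the normoxia list, and its hypoxia H3K27ac peak was distal.

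**Figure D2:**
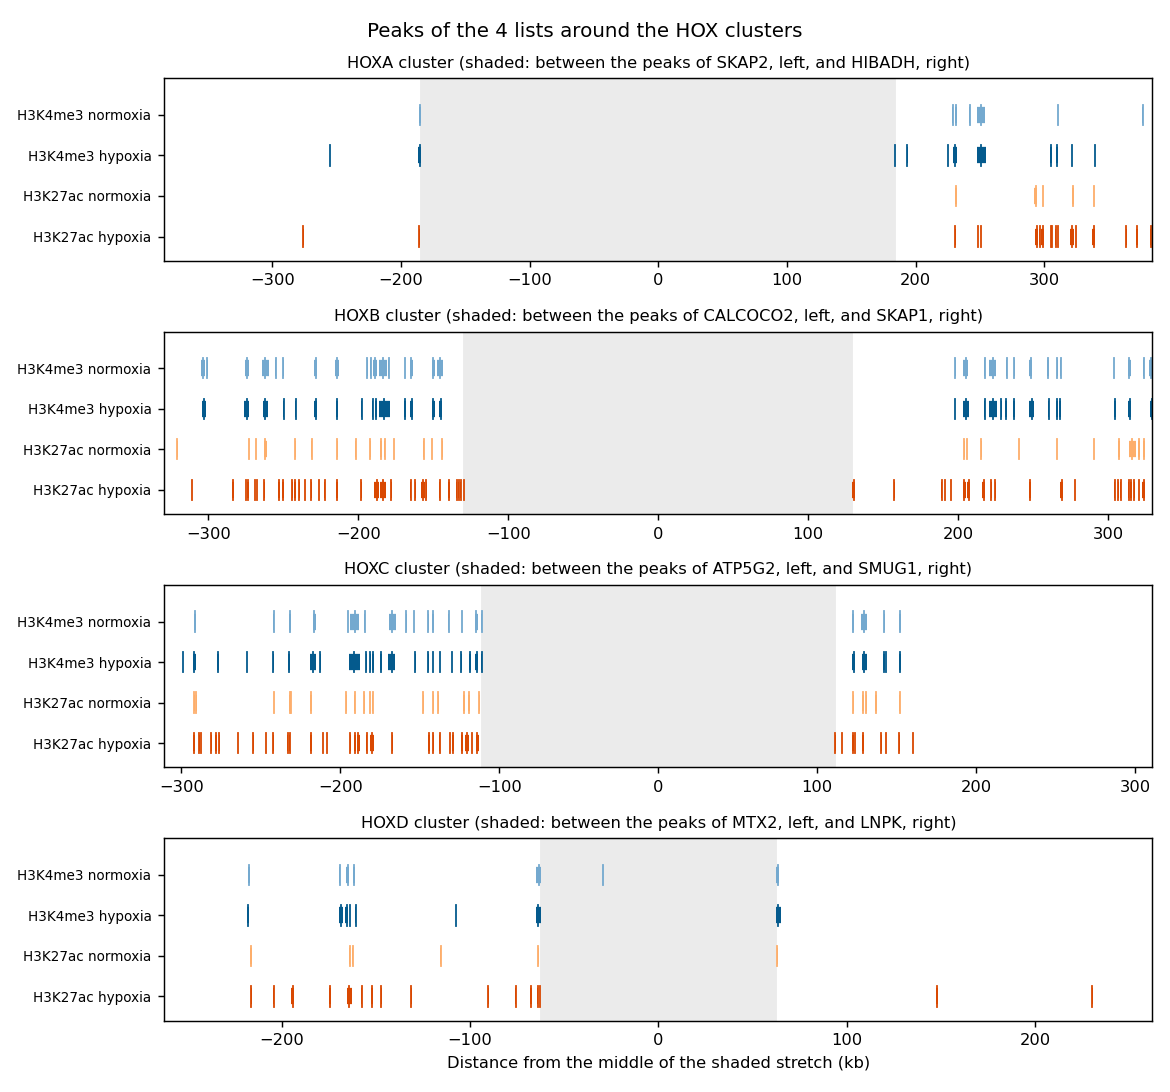
Peaks of the 4 lists (rows, colours) around each HOX cluster, plotted by distance in kb from the middle of the stretch between the neighbouring genes' peaks (shaded) and 200 kb beyond it; each vertical tick is 1 peak. The shaded HOXA, HOXB and HOXC stretches are empty, and the HOXD stretch holds the single HOXD4 tick in the normoxia H3K4me3 row.

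Set against all 61663 stretches between neighbouring peaks of the 4 lists, with a median of 4732 bp and a 99th percentile of 158 kb, HOXA, HOXB and HOXC were long. HOXA ranked 65 (0.105% of stretches were as long), HOXB 166 (0.269%) and HOXC 254 (0.412%). The HOXD piece of 91.8 kb ranked 1807 (2.93%). These HOXA, HOXB and HOXC stretches therefore lay past the 99th percentile and HOXD did not, and longer stretches without a peak were present elsewhere. The HOX stretches were picked because they span several genes, which by itself favours long ones. The ranks here and on each chromosome count stretches and not sequence, so they are a description only. What share of the sequence lies in stretches this long was not computed.

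The lists differed in the distance between their nearest peaks on either side of the stretches. They also differ in size, from 15511 peaks (normoxia H3K27ac) to 45734 (hypoxia H3K27ac), and how far size bears on these lengths was not tested. At HOXA the distance was 412.8 kb in normoxia H3K4me3, 368.2 kb in hypoxia H3K4me3, 722.1 kb in normoxia H3K27ac and 416.2 kb in hypoxia H3K27ac. At HOXB the same lengths were 341.3, 341.7, 347.5 and 259.0 kb, and at HOXC they were 232.8, 233.0, 234.9 and 223.8 kb. At HOXD they were 125.2 kb with the HOXD4 peak inside, then 124.9, 126.3 and 210.3 kb. The HOXC borders thus moved little between lists, while at HOXA no normoxia H3K27ac peak was listed over a longer distance than in the other lists.

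The 8 windows of 100 kb next to the stretches held 186 peaks. Since each window begins at a neighbour's peak, this is a description of the surroundings and not a contrast with the stretches. By side, the windows held 5 (SKAP2), 13 (HIBADH), 47 (CALCOCO2), 22 (SKAP1), 55 (ATP5G2), 23 (SMUG1), 17 (MTX2) and 4 (LNPK). Per cluster, HOXA had 18 peaks in its 200 kb of flanks, where its chromosome's density would give 16.0, and HOXD had 21, where it would give 21.9. HOXB had 69 against 28.7, and HOXC had 78 against 26.5. Summed over both sides, the HOXA and HOXD surroundings were near the density of their chromosomes, and those of HOXB and HOXC were denser. The sides were unlike, with 5 and 13 peaks at HOXA and 17 and 4 at HOXD, so the sum does not describe each side. By list, the windows held 39 normoxia and 46 hypoxia H3K4me3 peaks, a ratio of 1.18, where the whole lists (22288 and 24987) had a ratio of 1.12. They held 33 normoxia and 68 hypoxia H3K27ac peaks, a ratio of 2.06, where the whole lists (15511 and 45734) had 2.95. More H3K27ac peaks were listed in hypoxia in 7 of the 8 windows, with equal numbers at LNPK.

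Few groups of neighbouring genes were as empty. Along RefSeq's order there were 1812 runs of consecutive named genes without a line, with a median of 1 gene, and 17 runs had at least 6 genes. Of these 17, 4 were HOX runs: the HOXA genes and EVX1 with 12 genes, the HOXB genes with 9, HOXD8 to EVX2 with 7 and the HOXC genes with 6. HOXD1 and HOXD3, on the other side of HOXD4, made a run of 2. The other long runs included 15 genes from AvBD13 on, mostly defensins, which are antimicrobial peptides, 8 keratin genes and 7 protocadherin genes. A gene that the peak table names otherwise, or by a gene identifier alone, counts as unlisted in this order. The same holds for the share of all named genes with a line. Of the table's 12821 symbols other than gene identifiers, 94.5% were found in RefSeq.

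**Figure D3:**
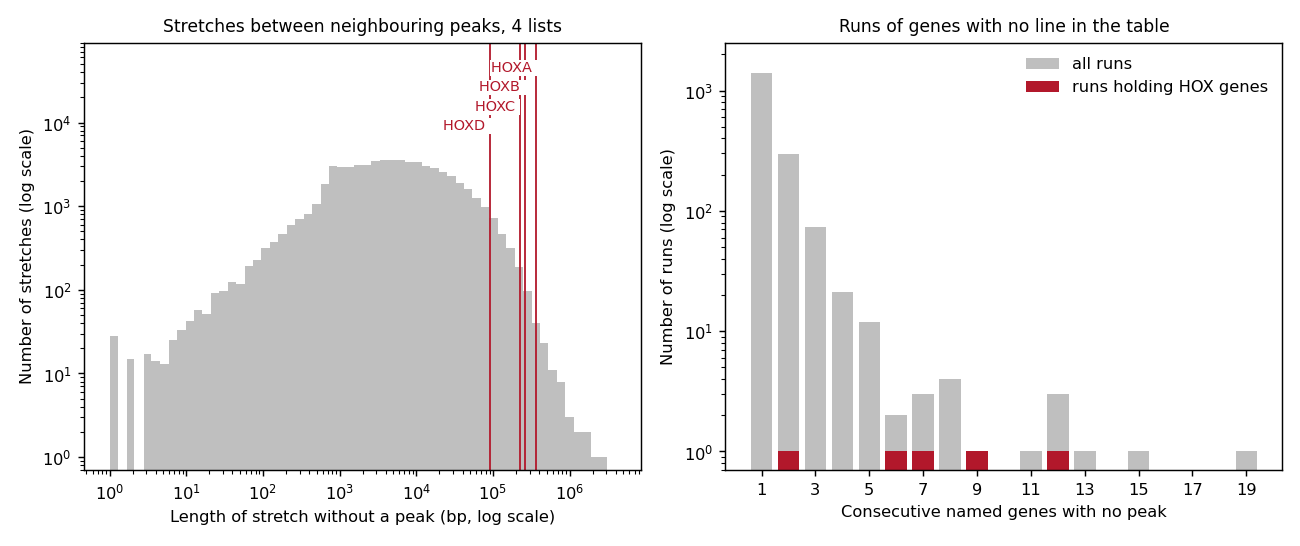
Left, the number of stretches without a peak of any list by their length (bp), both on log scales, with the longest peak-free stretch at each HOX cluster as a red line. Right, the number of runs (log scale) by the number of consecutive named genes without a line, with the 5 runs that hold HOX genes in red; HOXA, with 12 genes, lies among the longest runs.

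Other developmental genes were also poor in promoter peaks, but more of them had a line. Of 48 homeobox, T-box and related genes of other regions, 36 (75.0%) had at least 1 line, near the 82.4% of all named genes. Promoter peaks were listed for 9 of 48 (18.8%, Wilson 95% interval 10.2 to 31.9%; all genes 63.9%) in normoxia H3K4me3 and 6 (12.5%; all genes 65.2%) in hypoxia H3K4me3. They were listed for 1 (2.08%; all genes 29.8%) in normoxia H3K27ac and 5 (10.4%; all genes 53.6%) in hypoxia H3K27ac. In both conditions, 5 of the 48 had H3K4me3 promoter peaks. Those of IRX5, TBX3 and TBXT (Brachyury, a mesoderm gene) were of 1314 and 1047 bp, 1121 and 1305 bp, and 1544 and 734 bp. Those of BARX2 were of 1331 and 1058 bp, and those of IRX1 of 545 and 785 bp. LMX1B, which patterns the dorsal limb, had one of 1430 bp in normoxia alone, and PAX9 one of 816 bp in normoxia alone. Among the 48, 4 genes had an H3K4me3 promoter peak in the normoxia list only, a state of 2.31% of all named genes, and 1 in the hypoxia list only. A line can come from a distant peak, whereas a promoter peak cannot, and how the spacing of genes bears on these shares was not tested. The 6 ParaHox and CDX genes, close relatives of the HOX genes, had no promoter peak in any list: CDX1, GSX2 and PDX1 had lines farther off, and CDX2, CDX4 and GSX1 had none.

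The genes of HOX partner proteins and of the complexes that act on HOX clusters mostly had H3K4me3 promoter peaks, as did 63.9% (normoxia) and 65.2% (hypoxia) of all named genes, while 29.8% and 53.6% had an H3K27ac one. All 7 TALE homeobox genes that could be matched, whose products bind DNA together with HOX proteins, had a line, and 6 had a promoter peak in normoxia H3K4me3, 7 in hypoxia H3K4me3, 5 in normoxia H3K27ac and 4 in hypoxia H3K27ac. The H3K4me3 promoter peak at MEIS2, which also acts in lens formation, was 7023 bp wide in normoxia and 8322 bp in hypoxia. PKNOX2 had the fewest peaks of the 7, with 1 hypoxia H3K4me3 peak of 176 bp. Of 27 genes of the Polycomb complexes PRC2 and PRC1, 25 had an H3K4me3 promoter peak in normoxia and 26 in hypoxia, and 15 and 16 had an H3K27ac promoter peak. EZH2, the methyltransferase of PRC2, had H3K4me3 peaks of 3556 and 3297 bp, and CBX2, a reader of its mark, of 6222 and 7683 bp. Of 11 trithorax genes, whose products counteract Polycomb, 8 and 9 had an H3K4me3 promoter peak and 5 and 9 an H3K27ac promoter peak; that of KMT2A was 3605 bp wide in normoxia and 2996 bp in hypoxia for H3K4me3. In hypoxia H3K27ac the TALE (57.1%) and Polycomb (59.3%) shares were near the 53.6% of all genes, and in normoxia H3K4me3 the trithorax share (72.7%) was near the 63.9%. These are marks at the genes' promoters and not measures of RNA or protein.

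**Figure D4:**
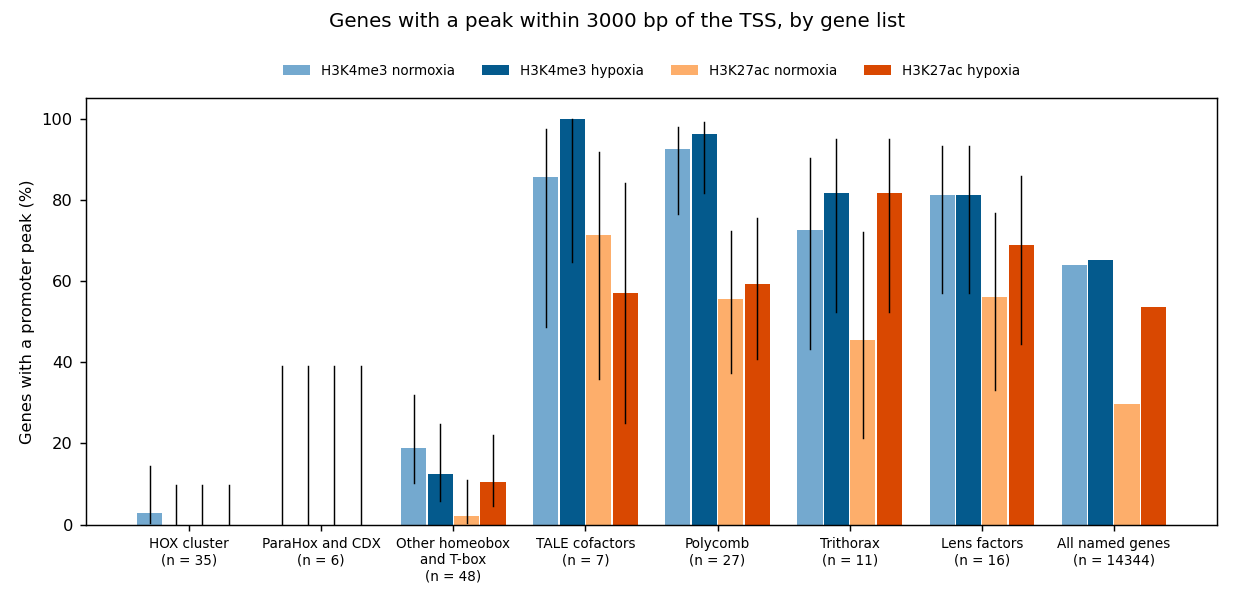
Percent of the genes of each list with a peak within 3000 bp of the TSS in each of the 4 peak lists, with Wilson 95% intervals as vertical lines and all 14344 named genes at the right. The HOX genes show 1 of 35 in normoxia H3K4me3 and 0 of 35 in the other lists.

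Most lens fiber genes had promoter peaks of both marks. The 19 fiber genes were mostly crystallins, lens membrane and beaded filament genes, with HSF4 and LGSN. Of these 19, 16 and 17 had an H3K4me3 promoter peak in normoxia and hypoxia (all genes 63.9% and 65.2%). An H3K27ac promoter peak was listed for 16 and 18 (all genes 29.8% and 53.6%). The Wilson 95% interval of the normoxia H3K4me3 share, 62.4 to 94.5%, held the share of all genes. MIP, the lens water channel, had H3K4me3 promoter peaks of 9445 and 18518 bp, and BFSP1, a beaded filament protein, of 14308 and 18179 bp. Others were narrower or missing: the crystallin gene CRYBB2 had 1037 bp in normoxia, and CRYAA had no H3K4me3 promoter peak in either condition. Of 16 lens transcription factors, 13 (81.2%) had an H3K4me3 promoter peak in each condition. The interval of 57.0 to 93.4% held the shares of all genes. These lists overlap: HSF4 is also among the fiber genes, and MEIS1 and MEIS2 are among the TALE genes. The peaks of PAX6 spanned 19507 and 20562 bp. The H3K4me3 domains at PAX6, a master regulator of eye formation, were thus far wider than the 255 bp at HOXD4. Lens factors varied in this, and the H3K4me3 promoter peaks of SIX6 were 378 and 654 bp wide. FOXE3 and PITX3, among the lens factors, and LIM2, a fiber membrane protein, had no line, so a missing line occurred among lens genes too.

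Markers of other cells are set here beside the same shares over all genes (63.9% and 65.2% for H3K4me3, 29.8% and 53.6% for H3K27ac, in normoxia and hypoxia). Of 11 genes of trunk or limb mesenchyme, a tissue that uses HOX genes, 2 (18.2%) had an H3K4me3 promoter peak in normoxia and 1 (9.09%) in hypoxia, and 1 and 2 had an H3K27ac one. Of 11 blood and endothelial genes the counts were 3 and 3 (27.3% each) for H3K4me3 and 2 and 1 for H3K27ac, and of 9 retinal and neuronal genes 2 and 2, then 1 and 4. Of 4 genes of the lens epithelium, 3 and 3 (75.0% each) had an H3K4me3 promoter peak and 2 and 3 an H3K27ac one. FOXE3 is counted there and among the lens factors. The mesenchymal, blood and neuronal H3K4me3 shares were thus below those of all genes, and the epithelial share was near them. How far other cells contributed to the HOXD4 peak was not tested.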

How the data were processed

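The authors deposited 1 table of CUT&RUN peaks for 4 lists (H3K4me3 and H3K27ac, each in normoxia and hypoxia), with coordinates, an annotation class, a gene and a distance to the TSS. It holds no score, read count or value per library. The submitters' processing notes name STAR, MACS2, ChIPseeker, DESeq2 and the galGal6 build without versions or roles. The sources used here do not state whether replicates were pooled before peak calling, or how the IgG libraries were used. Depth per library is unknown.

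Repeated lines of 1 interval in a list were counted once (108520 peaks). HOX genes were found by symbol. By position, clusters were placed between the peaks of their RefSeq neighbours (GRCg7b, gene order and names only). Overlap meant at least 1 bp, a promoter peak lay within 3000 bp of a TSS, and flanking windows were 100 kb. Starts are printed counted from 1. Python 3.11.15, pandas 2.3.3, numpy 2.4.6 and scipy 1.17.1 were used, and overlap and run counting were tested on simulated intervals. The genes and lists were chosen with earlier results of these data known. HOX genes were to be named, with full values for those with a promoter peak; other genes came from the lists and the cluster neighbours. Some genes are not reported here by name.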

Additional observations from a re-analysis of the deposited data

How the results depend on the processing

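Counts of 0 at HOXA, HOXB and HOXC cannot move under a width limit or a recount of lines, so those settings say nothing of their stability. The HOXD count and covered length fell to 0 with peaks of at least 500 bp, and the count to 0 at 1000 bp. The number of HOX genes with a promoter peak fell to 0 with a window of 1000 bp or with peaks of at least 500 bp, and the number in the normoxia list only to 0 with the window of 1000 bp; each rests on the single HOXD4 interval. Reading by position gave the same counts, 0 at HOXA, HOXB and HOXC and 1 at HOXD. Peaks annotated to a neighbour set the edges of the stretches and could not be counted in that reading. Asking 50% overlap or a distance of 500 bp left HOXD4 in the normoxia list only. Alternatives chosen after seeing the data (peaks of at least 500 bp, 1 mark or 1 condition alone) gave longest empty stretches of 368.2 to 416.1 kb at HOXA, 259.0 to 341.3 kb at HOXB, 221.8 to 232.8 kb at HOXC and 91.8 to 125.7 kb at HOXD. Genes touched by a peak could not be read without an annotation of the build. A hypoxia to normoxia ratio of covered length could be formed only for H3K4me3 at HOXD, with 0 bp in hypoxia and 255 bp in normoxia. Elsewhere nothing was covered in either condition, so no ratio exists. No paired analysis was possible because the lists hold no values per library, and for the same reason no replicate could be left out.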

Other observations

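Some symbols of the table hold the letters HOX without naming a cluster gene. HOXCDX1L had 4 peaks on chromosome 4, of 838 and 761 bp in hypoxia H3K27ac, 309 bp in normoxia H3K27ac and 185 bp in hypoxia H3K4me3. SHOX, a homeobox gene of limb growth in humans, had 8 distal peaks on chromosome 1. The widest SHOX peak, of 1712 bp in hypoxia H3K27ac, overlapped that of 1101 bp in normoxia H3K27ac, and both lay over 100 kb from the annotated start.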
